A study of Homo sapiens with 27 samples.

Results

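The interaction of Compound Kushen Injection (CKI) and doxorubicin was measured in A431 cells, an established line of human epidermoid carcinoma. It rests on 12 of the 27 libraries of the series, which form a complete square of 4 groups with 3 libraries each: untreated cells, cells given CKI, cells given doxorubicin, and cells given both agents. All were collected at 48 h and sequenced as unstranded paired-end libraries of total RNA. The CKI concentration was 1 mg/ml, obtained by diluting the injection 1 in 20. The labels name more than one amount of doxorubicin without tying either to a library, so no dose is given here. A vehicle control of 3 further A431 libraries, whose content the labels do not describe, served as a second baseline. For each gene the interaction is the log2 change made by CKI in doxorubicin-treated cells minus the log2 change made by CKI in untreated cells. A value of 0 means that the changes made by the agents multiply. A positive value means that cells given both held more transcript than the product of the single changes, and a negative value that they held less.

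CKI is an aqueous extract of the herbs Kushen and Baituling that is used alongside chemotherapy. Doxorubicin is an anthracycline that intercalates into DNA and traps topoisomerase II on it, which breaks DNA, activates the p53 response and evicts histones. A431 cells carry an amplified EGFR gene and keep features of the epidermal keratinocyte, including its basal keratins. Agents that act through separate routes can each change a gene as if the other were absent, and an interaction contrast asks for which genes that was not so.

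Total counts ranged from 17757206 to 21105289 per library in the 4 groups. Replicates differed by more than counting noise, with a chi-square per degree of freedom between 1.87 and 5.14 for each pair, so all 3 libraries of each group were kept. The vehicle libraries used as the second baseline differed more, with values of 10, 26.1 and 9.22 for their pairs. The series calls the replicates biological without saying whether cultures were separate, and the p-values measure the spread between these libraries. For single genes, CPM means read counts scaled by library size and TMM factor, whereas the marker sums were scaled by library size alone. The summed level of 12 keratinocyte markers was 10300 to 12700 CPM in these groups. The summed levels were 4.17 to 11.9 CPM for 5 leukocyte markers, 1.26 to 10.1 CPM for 5 melanocyte markers, 19.5 to 70.7 CPM for 6 fibroblast markers and 12.5 to 52.7 CPM for 4 endothelial markers. The fibroblast and endothelial sums came mostly from COL1A1 and from VWF and CDH5, and their part in the results was not tested. In bulk RNA of this kind, a fall in the number of cells that express a gene and a fall in transcript per cell cannot be told apart.

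Of 15881 genes tested, 3092 (19.5%) had a called interaction, which here means an absolute log2 value over 1 and, in the quasi-likelihood test of edgeR, a p-value under 0.05 after Benjamini-Hochberg adjustment. The call was positive for 1360 genes (8.56%) and negative for 1732 (10.9%). For every called gene, all 3 libraries given both agents lay on the same side of the level expected from the other groups. The calls were made from these same libraries, so this is no separate check of them. The interaction was centred near 0, with a median of 0.04 over all genes and its central 90% between -1.98 and 1.43. On the CPM scale, where single changes are added rather than multiplied, 1340 of the positive and 1687 of the negative genes stayed on the same side. The division between the directions depended on the scaling of libraries: 44% of the called genes were positive with TMM factors and 33% with library size alone, which moved the median to -0.10.

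CKI changed fewer genes in the presence of doxorubicin than in its absence. Without doxorubicin it changed 3554 genes (22.4%), of which 1901 (12%) rose and 1653 (10.4%) fell. With doxorubicin it changed 2369 (14.9%), of which 1094 (6.89%) rose and 1275 (8.03%) fell. These comparisons share no library. Of the genes that rose with CKI, 424 rose in both settings, which is 22.3% of those that rose without doxorubicin and 38.8% of those that rose with it. For genes that fell, 427 were shared, or 25.8% and 33.5%. The median absolute CKI effect was 0.573 on the log2 scale without doxorubicin and 0.412 with it.

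Seen from the other agent, doxorubicin changed 5925 genes (37.3%) in cells without CKI and 4077 (25.7%) in cells with CKI. In cells without CKI 3650 (23%) rose and 2275 (14.3%) fell, and in cells with CKI the numbers were 2638 (16.6%) and 1439 (9.06%). Of the genes that rose with doxorubicin, 2150 did so in both settings, which is 58.9% of the genes without CKI and 81.5% of those with it. The shared falls numbered 818, or 36.0% and 56.8%.

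**Figure D1:**
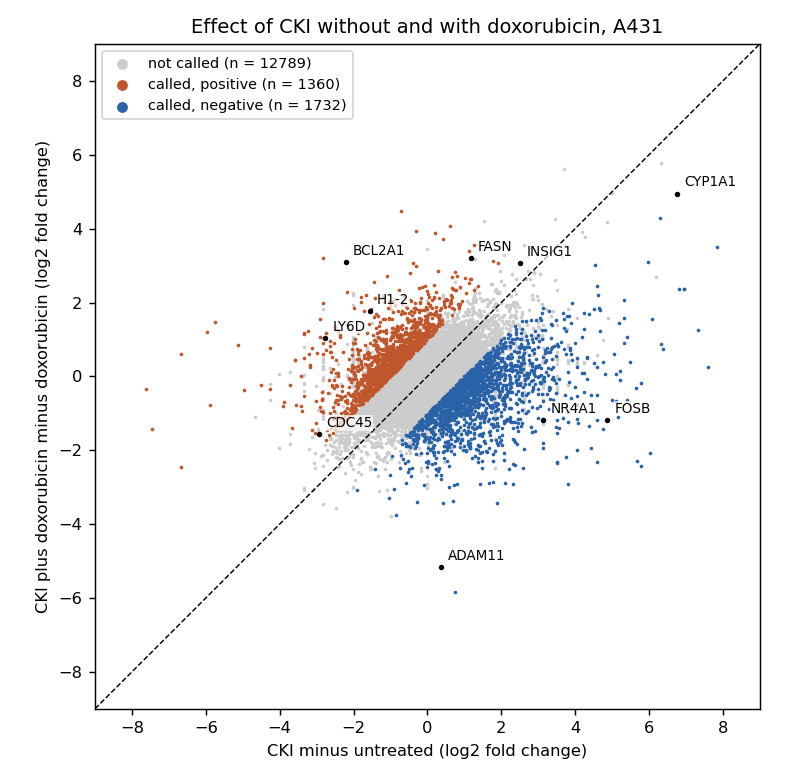
Each point is 1 of 15881 genes. The horizontal axis is the log2 change made by CKI in untreated cells and the vertical axis the log2 change made by CKI in doxorubicin-treated cells, each from 3 libraries per group, and the dashed line marks equal effects. The 1360 positive interactions (orange) lie above the line and the 1732 negative ones (blue) below it, with FOSB, NR4A1 and ADAM11 far below and BCL2A1 far above.

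The 3092 interaction genes were sorted by whether the CKI effect passed the same thresholds without and with doxorubicin. The largest class held 1382 genes (44.7%) that CKI changed only in the absence of doxorubicin, 779 of which rose and 603 of which fell there. A further 662 genes were changed by CKI only in doxorubicin-treated cells. In 183 genes CKI acted in opposite directions: 134 rose without doxorubicin and fell with it, and 49 did the reverse. CKI acted in the same direction but less strongly with doxorubicin in 99 genes, and more strongly in 14. In 752 genes neither CKI effect passed the thresholds, although their difference did.

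The gene with the smallest adjusted p-value among positive interactions was H1-2, which encodes a linker histone that compacts chromatin between nucleosomes. H1-2 (chr6:26055968-26056698 on GRCh37, as are all gene positions given) measured 66.3, 72.9 and 68.1 CPM in untreated cells, 22.3, 24.7 and 23.5 CPM with CKI, 32.1, 31.2 and 33.4 CPM with doxorubicin and 109, 108 and 114 CPM with both. Each agent alone thus lowered it in every library, and every library given both lay above the untreated range. The interaction was 3.33 (SE 0.092, adjusted p = 2.05e-17), and the mean of 110.3 ± 3.26 CPM (SD, n = 3) compares with 10.9 CPM for the product of the single changes.

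ANO1, a calcium-activated chloride channel (chr11:69832013-70035636), was lowered by CKI in untreated cells and raised by CKI in doxorubicin-treated cells. It measured 692, 688 and 730.0 CPM untreated, 309, 310.2 and 303 CPM with CKI, 46.8, 51.3 and 49.5 CPM with doxorubicin and 145, 139 and 145 CPM with both. The libraries given both agents lay below those given CKI and above those given doxorubicin, and the interaction was 2.73 (SE 0.0796, adjusted p = 4.94e-17). EDF1, a transcriptional coactivator and ribosome-associated factor, fell by 4.47 on the log2 scale with doxorubicin, from a mean of 294 to 13.2 CPM, and stood at 54.7 CPM with both agents (interaction 3.07). ARFRP1, a small GTPase of the trans-Golgi, stood at 128 CPM untreated, 56.8 CPM with CKI, 7.16 CPM with doxorubicin and 29.00 CPM with both (interaction 3.18). CKI lowered both of these in untreated cells and raised them in doxorubicin-treated cells.

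LPCAT1, an enzyme that remodels phospholipids, and TRIM47, a ubiquitin ligase, had interactions of 2.34 and 2.71. APOBEC3B, a DNA cytidine deaminase, differed in that doxorubicin alone left its level within the untreated range. It measured 112, 110.3 and 124 CPM untreated, 111, 115 and 115 CPM with doxorubicin, 59.5, 59.9 and 63.2 CPM with CKI and 278, 278 and 289 CPM with both. Its level with both agents lay above all other libraries of the 4 groups, and the interaction was 2.23 (SE 0.0809, adjusted p = 2.37e-15).

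Among the negative genes with the smallest adjusted p-values, TIMP2, an inhibitor of matrix metalloproteinases, was raised by each agent alone and no further by both. It measured 167, 167 and 168 CPM untreated, 612, 623 and 648 CPM with CKI, 657, 621 and 659 CPM with doxorubicin and 695, 633 and 650.2 CPM with both, so that all 9 treated libraries fell in overlapping ranges far above the untreated cells. The product of the single changes was 2422 CPM, and the interaction was -1.88 (SE 0.0739, adjusted p = 7.09e-15). GABARAPL1, a member of the ATG8 family of autophagy, stood at 27.8 CPM untreated, 112 CPM with CKI, 159.6 CPM with doxorubicin and 122 CPM with both (interaction -2.40).

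ALPP, the placental alkaline phosphatase, rose from 6.15 CPM to 53.6 with CKI and to 205 with doxorubicin, and held 129.6 CPM with both (interaction -3.80). ALPP and the hair keratin KRT81 (interaction -2.84) have close paralogs, and how reads were shared among these was not stated. NTN4, a secreted netrin of basement membranes, measured 83.2, 84.8 and 86.2 CPM untreated, 168, 177 and 172 CPM with CKI, 154, 165 and 162 CPM with doxorubicin and 82.3, 75.6 and 79.9 CPM with both. Either agent alone gave levels above the untreated range, and both together gave levels below it in all 3 libraries (interaction -2.04, SE 0.0781, adjusted p = 4.37e-15).

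**Figure D2:**
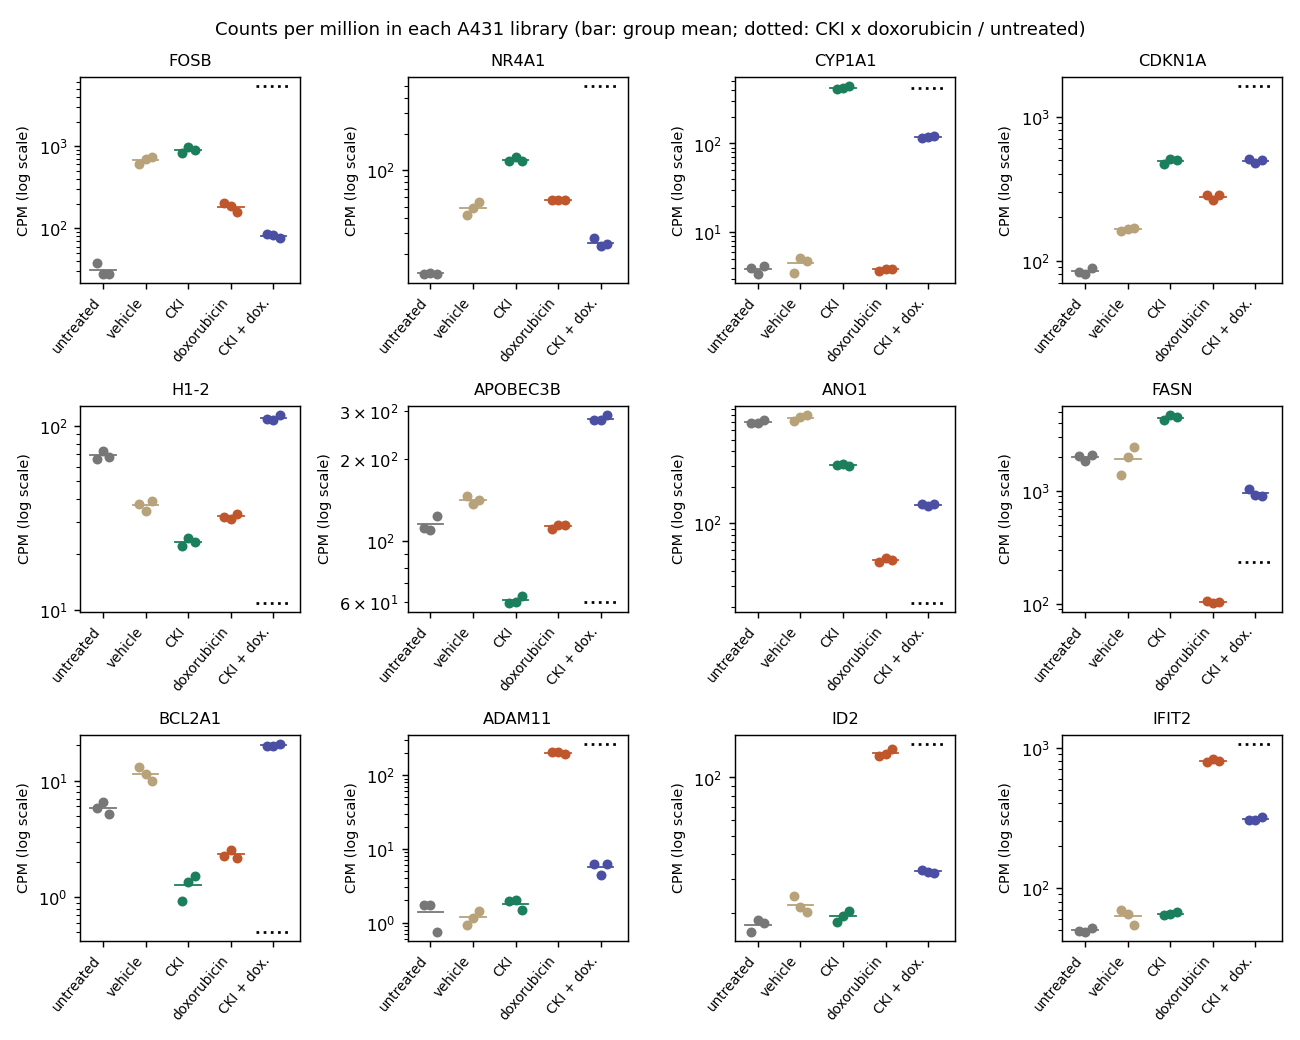
CPM on a log axis for 12 genes in each of 15 A431 libraries. Points are libraries, bars are group means (n = 3), and the dotted line over CKI plus doxorubicin is the level given by multiplying the single changes. The cells given both agents lie below the dotted line for FOSB, NR4A1, CYP1A1, CDKN1A, ADAM11, ID2 and IFIT2 and above it for H1-2, APOBEC3B, ANO1, FASN and BCL2A1.

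Immediate early genes, transcription factors and phosphatases that are induced within minutes by growth factors and stress, held the largest share of called interactions among 23 gene lists. Of 21 members tested, 14 were negative and 1 positive, with a median interaction of -1.37 against 0.04 over all genes. The share called was 71.4%, beside 19.5% of all genes. Against untreated cells, CKI alone raised 16 of them, and with doxorubicin present it raised 2 and lowered 1. FOSB, a partner of JUN in the AP-1 factor (chr19:45971253-45978437), measured 37.5, 27.97 and 28.1 CPM untreated, 831, 986 and 903 CPM with CKI, 205, 186 and 160.0 CPM with doxorubicin and 85.8, 82.5 and 75.8 CPM with both. CKI thus raised FOSB in untreated cells and lowered it in doxorubicin-treated cells without overlap of the libraries, for an interaction of -6.04 (SE 0.152, adjusted p = 8.38e-18). NR4A1, an orphan nuclear receptor of the same rapid class (chr12:52416616-52453291), showed the same reversal. Its level was 13.9, 14.1 and 13.8 CPM untreated, 119, 129 and 119 CPM with CKI, 56.8, 56.8 and 56.3 CPM with doxorubicin and 27.3, 23.3 and 24.6 CPM with both (interaction -4.31, SE 0.114, adjusted p = 1.32e-17).

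ATF3, a stress-induced transcription factor, had an interaction of -4.74, DUSP1, a phosphatase that switches off MAP kinases, -3.30, and PPP1R15A, which directs dephosphorylation of eIF2α, -2.14. The 1 positive member was FOSL1 (1.41), an AP-1 subunit that stood at 216 CPM untreated, 204 with CKI, 113 with doxorubicin and 285 with both.

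The choice of baseline changed this result for most of the list. In the vehicle control, ATF3 measured 501, 426 and 390.1 CPM and DUSP1 278, 325 and 323 CPM, compared with 12.2, 10.6 and 14.2 and 26.9, 21.8 and 28.8 CPM in untreated cells. With vehicle in place of untreated cells the list held 3 positive and 2 negative members and its median was 0.12. The positive ones were FOSL1, EGR3 (1.61) and KLF6 (1.03), and KLF6 was called negative with the untreated baseline (-2.30). The interaction then became 0.41 for ATF3, 0.29 for DUSP1 and 0.11 for PPP1R15A, so that their signs turned, and none of the 3 passed the thresholds. FOSB kept a called negative interaction of -1.58 and NR4A1 one of -2.50. The rise with CKI alone also depended on the baseline. Against vehicle, that change was 0.41 for FOSB, -0.34 for ATF3, 0.32 for DUSP1, -0.35 for PPP1R15A and 1.32 for NR4A1. KLF2, a flow-responsive transcription factor of the list, was the other member called negative with both baselines (-3.83 and -2.64), and FOSL1 was called positive with both (1.41 and 1.87). Over all genes 2287 (74%) of the 3092 calls were made in the same direction with the vehicle baseline. Of the 102 named genes that were called, 29 were not called with it and 1 was called in the other direction, and each is given with its list.

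**Figure D3:**
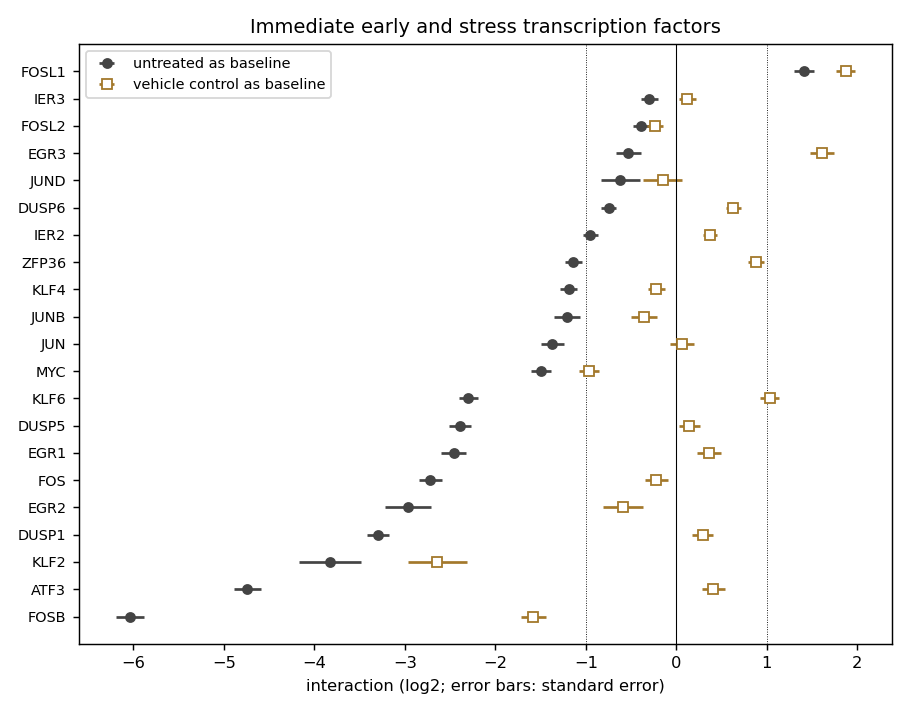
Interaction on the log2 scale with its standard error for 21 immediate early genes, with untreated cells (filled circles) or the vehicle control (open squares) as the baseline, 3 libraries per group. The median moves from -1.37 to 0.12, while FOSB and KLF2 stay below -1 and FOSL1 above 1 with either baseline.

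NF-κB targets and inflammatory cytokines had interactions in both directions. Of 25 tested members, 7 were positive and 4 negative (median 0.44), and 15 were positive and 1 negative with the vehicle baseline (median 2.16). BIRC3, an inhibitor of apoptosis that NF-κB induces, measured 26.2, 25.2 and 24.8 CPM untreated, 22.9, 24.96 and 24.9 CPM with CKI, 9.67, 12.5 and 10.1 CPM with doxorubicin and 55.5, 58.5 and 62.4 CPM with both. The libraries given CKI alone overlapped the untreated ones, whereas CKI raised BIRC3 in doxorubicin-treated cells, above every library of the other 3 groups (interaction 2.52, SE 0.151, adjusted p = 4.84e-12). The neutrophil chemokine CXCL1 (1.63) and the cytokine IL32 (1.48) were positive as well, and all of these were also called with the vehicle baseline. On the negative side, NFKBIZ, a nuclear regulator of NF-κB, was at -2.47, the prostaglandin synthase PTGS2 at -2.03, the adhesion molecule ICAM1 at -1.33 and the cytokine LIF at -1.02. With the vehicle baseline NFKBIZ turned to 0.82 and PTGS2 stood at -0.14, neither of which passed the thresholds. IL1B, the interleukin-1β gene that the study followed up, measured 153, 166 and 173 CPM untreated, 372, 378 and 395 CPM with CKI, 42.9, 45.2 and 46.8 CPM with doxorubicin and 138, 139 and 149 CPM with both. CKI raised it by 1.22 log2 units without doxorubicin and by 1.66 with it, and the interaction of 0.44 did not pass the fold threshold, whereas it did with the vehicle baseline (1.97). Against vehicle, the change of IL1B with CKI alone was -0.31, so it was not raised there. The study reported more IL-1β protein by ELISA in the medium of A431 cells given CKI than of untreated cells. That was protein at a higher CKI concentration, so it is not set against these RNA values.

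Among 13 members of the BCL2 family, which set the threshold of mitochondrial apoptosis, 2 were positive and 3 negative, while the median was 0.54. Calls made up 38.5% of the list, beside 19.5% of all genes. BCL2A1, an anti-apoptotic member (chr15:80253234-80263538), measured 5.78, 6.51 and 5.17 CPM untreated, 0.920, 1.34 and 1.54 CPM with CKI, 2.27, 2.55 and 2.18 CPM with doxorubicin and 19.7, 19.9 and 20.5 CPM with both. Each agent alone lowered it and both together gave levels above the untreated range in all 3 libraries, for an interaction of 5.31 (SE 0.222, adjusted p = 1.53e-14). The pro-apoptotic member BOK was at 1.27. Negative values were found for the pro-survival MCL1 (-1.33) and BCL2L1 (-1.02) and for the pro-apoptotic BCL2L11 (-1.30). When vehicle was the baseline, BOK (0.69), MCL1 (-0.10), BCL2L1 (-0.84) and BCL2L11 (-0.84) did not pass the thresholds, and BCL2A1 did (6.28).

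Interferon-stimulated genes encode antiviral effectors and the factors that relay the interferon signal. Doxorubicin alone raised 34 of the 39 tested, CKI alone raised 1 and lowered 4, and 6 had a negative and 2 a positive interaction, with a median of -0.22. The list's share of calls, 20.5%, was near the 19.5% of all genes. Of the negative genes, 2 carried a core interferon-stimulated response element, the hallmark of promoters of this class, in the RefSeq promoter window from 250 bases before to 50 bases after the transcription start. Their windows are shown so that the element can be seen beside the values, and they were chosen for it with the values known. The motif searched was GAAA, 2 bases of any kind and GAAA again on either strand, given in capitals, and positions are on GRCh38.p14.
IFI6 promoter (chr1:27672143-27672442, reverse strand): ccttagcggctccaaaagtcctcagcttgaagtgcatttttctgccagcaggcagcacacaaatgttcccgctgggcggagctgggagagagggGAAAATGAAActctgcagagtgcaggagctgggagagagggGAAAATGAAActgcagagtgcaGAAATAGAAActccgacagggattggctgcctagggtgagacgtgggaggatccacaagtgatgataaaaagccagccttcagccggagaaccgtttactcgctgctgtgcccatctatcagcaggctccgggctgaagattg
HERC5 promoter (chr4:88456869-88457168, forward strand): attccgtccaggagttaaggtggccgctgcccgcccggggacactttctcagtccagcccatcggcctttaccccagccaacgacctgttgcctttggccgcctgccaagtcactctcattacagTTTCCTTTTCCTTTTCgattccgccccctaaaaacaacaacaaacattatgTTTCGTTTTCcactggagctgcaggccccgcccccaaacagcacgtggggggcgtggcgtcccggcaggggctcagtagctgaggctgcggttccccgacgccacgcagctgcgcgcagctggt
The IFI6 window held 3 matches on the strand of the gene, and the HERC5 window 3 on the opposite strand, of which 2 overlap. The motif occurred in 20 (62.5%) of the 32 interferon-stimulated promoters available and in 2.91% of the 12559 promoters of tested genes.

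IFI6, a mitochondrial antiviral protein, measured 39.3, 42.6 and 48.3 CPM untreated, 51.1, 52.9 and 53.6 CPM with CKI, 1522, 1528 and 1559.8 CPM with doxorubicin and 909, 814 and 878 CPM with both. Doxorubicin raised IFI6 in either setting, and the libraries given both agents lay below those given doxorubicin alone (interaction -1.10, adjusted p = 4.08e-09). HERC5, the ligase for the ubiquitin-like ISG15, was at 24.1, 24.5, 262 and 127 CPM in the same order of groups (interaction -1.06). IFIT2, which binds viral RNA (chr10:91043451-91069028), had the smallest adjusted p-value of the list. It measured 49.6, 48.98 and 51.7 CPM untreated, 63.8, 65.2 and 67.4 CPM with CKI, 789, 836 and 796 CPM with doxorubicin and 307, 306 and 323 CPM with both, and CKI lowered it only in the presence of doxorubicin (interaction -1.76, SE 0.0955, adjusted p = 9.1e-13). The RNA sensor RIGI (-1.56) and the interferon-signal factor STAT2 (-1.63) were also negative, and with the vehicle baseline RIGI stood at -0.99, which was not called. The positive members were IFITM3, which blocks viral entry (1.15), and IRF9, the partner of STAT2 (1.60). Against vehicle they stood at 0.58 and 1.00 and the list had no positive call and 5 negative ones (median 0.02).

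Genes of epidermal differentiation, which build the cornified layer of the skin, had 12 positive and 3 negative calls among 29 tested. This is 51.7%, beside 19.5% of all genes, and the median was 0.92. CKI raised 5 of them and lowered 6 without doxorubicin, and raised 12 and lowered 2 with it. SPRR1B, a precursor of the cornified envelope, measured 10.9, 9.87 and 13.2 CPM untreated, 2.42, 2.93 and 4.39 CPM with CKI, 4.49, 4.91 and 4.86 CPM with doxorubicin and 20.1, 20.2 and 23.2 CPM with both. Each agent alone lowered SPRR1B, and both together gave levels above the untreated libraries (interaction 3.96, SE 0.216, adjusted p = 9.45e-13). LY6D, a surface protein of stratified epithelium, stood at 843 CPM untreated, 123 CPM with CKI, 5.09 CPM with doxorubicin and 10.5 CPM with both, so that the interaction of 3.81 was found at a level still far below the untreated one. KRT15, a keratin of basal progenitors, was positive too (1.69). The 3 negative members were KRT13 (-1.99) and KRT4 (-1.44), the keratin pair of mucosal epithelium, and the kallikrein protease KLK5 (-1.95). Against vehicle the list held 14 positive and 2 negative members, and KLK5 was no longer called (-0.73).

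Of 11 basal and activated keratins (median -0.20), 36.4% were called, beside 19.5% of all genes. KRT7 (1.22) and KRT18 (1.20), both typical of simple epithelium, were positive. KRT17 (-1.22) and KRT6C (-1.58), which are induced in wounded skin, were negative. With offsets for GC content and transcript length KRT7 (0.98) and KRT18 (0.96) were not called, and the list had 3 negative calls. KRT17 was not called against vehicle (-0.50). Closely related keratin genes and pseudogenes make the counts of these members uncertain.

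Matrix proteases and their inhibitors had 8 negative and 3 positive calls of 21 (52.4%, beside 19.5% of all genes), with a median of -0.39. ADAM11, a catalytically inactive member of the ADAM family (chr17:42836356-42859214), was low without doxorubicin. It measured 1.73, 1.71 and 0.757 CPM untreated, 1.94, 2.03 and 1.48 CPM with CKI, 206, 204 and 194 CPM with doxorubicin and 6.25, 4.40 and 6.24 CPM with both. The libraries given doxorubicin alone thus stood far above all others, those given both included, for an interaction of -5.52 (SE 0.293, adjusted p = 6.57e-13). Positive calls were made for the plasminogen activator PLAT (1.46), for MMP9 (1.62) and for TIMP1 (1.01). Against vehicle, PLAT (0.72) and TIMP1 (0.56) were not called.

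Ligands and receptors of the EGFR family had 4 negative calls of 13 and none positive (median -0.57). This is 30.8%, beside 19.5% of all genes in either direction and 10.9% negative. HBEGF, a ligand shed from the cell surface, measured 35.4, 31.7 and 36.7 CPM untreated, 174, 196 and 189 CPM with CKI, 64.7, 62.6 and 67.8 CPM with doxorubicin and 81.5, 77.6 and 82.9 CPM with both. CKI raised HBEGF without doxorubicin and by 0.31 log2 units with it, which did not pass the threshold, and the interaction was -2.12 (SE 0.0971, adjusted p = 6.06e-14). The feedback inhibitor ERRFI1 was at -1.32, the receptor ERBB4 at -1.95 and the ligand EGF at -2.71. Against vehicle, HBEGF stood at -0.19 and ERRFI1 was called positive at 1.26, so the list then held 2 positive and 2 negative members. The change of HBEGF with CKI alone was 0.5 against vehicle.

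ID proteins, which block basic helix-loop-helix factors, and the BMP and SMAD genes upstream of them had 4 negative calls and 1 positive of 16 (median -0.57). Calls made up 31.2% of this list, beside 19.5% of all genes. ID2 (chr2:8818975-8824591) measured 15.98, 18.3 and 17.6 CPM untreated, 17.8, 19.2 and 20.4 CPM with CKI, 129, 132 and 141 CPM with doxorubicin and 33.2, 32.6 and 32.2 CPM with both. CKI did not separate from untreated cells by itself but lowered ID2 in doxorubicin-treated cells (interaction -2.18, SE 0.107, adjusted p = 1.91e-13; with the vehicle baseline -1.83). ID4 (-3.62), the inhibitory SMAD6 (-1.80) and the ligand BMP4 (-1.54) were the other negative members, and the ligand BMP7 was positive (1.98).

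Most genes of DNA replication and mitosis fell with CKI in either setting. Of 45 replication genes, CKI lowered 42 without doxorubicin (median -2.06) and 33 with it (median -1.39). The 9 interactions called were all positive, and the median of the list was 0.62. The share called, 20.0%, was near the 19.5% of all genes called in either direction, while 8.56% of all genes were called positive. RFC2, a subunit of the clamp loader, measured 70.96, 75.02 and 75.7 CPM untreated, 13.03, 12.7 and 13.2 CPM with CKI, 50.8, 54.3 and 55.96 CPM with doxorubicin and 23.9, 25.7 and 25.4 CPM with both. The 4 groups did not overlap, and the interaction was 1.41 (SE 0.0925, adjusted p = 1.95e-11). CDC45, which joins the replicative helicase, was at 1.37 and the polymerase subunit POLA1 at 1.31. POLA1 fell by 1.79 on the log2 scale with doxorubicin alone and fell by 1.76 with CKI alone, while the change made by CKI on top of doxorubicin was -0.46, under the threshold.

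Of 34 mitosis and spindle checkpoint genes, CKI lowered 33 without doxorubicin and 29 with it. The 3 called were all positive: the mitotic cyclin CCNB1 (1.17), the ubiquitin-conjugating enzyme UBE2C (1.08) and the kinase PLK1 (1.03). CCNB1 stood at 236 ± 7.07 CPM untreated, 50.7 ± 1.08 with CKI, 136 ± 3.29 with doxorubicin and 65.6 ± 0.625 with both (SD, n = 3). The list's share of calls, 8.82%, lay below the 19.5% of all genes in either direction and near their positive share of 8.56%. Its median was 0.66. With library size alone as the scaling, and with offsets for GC content and transcript length, 1 of the list was called. UBE2C (0.78) and PLK1 (0.85) were not called against vehicle. Homologous recombination and damage checkpoint genes had 4 positive calls of 22 and a median of 0.64. This is 18.2%, beside 19.5% of all genes in either direction and 8.56% positive. Among the called members of this list were NBN (1.16), CHEK1 (1.34) and BLM (1.12). CHEK1, the kinase that halts the cycle at stalled forks, measured 32.1, 33.9 and 33.3 CPM untreated and was between 11.9 and 14.8 CPM in all 9 treated libraries.

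Targets of p53 had 6 negative calls of 26 and none positive (median -0.60). This is 23.1%, beside 19.5% of all genes in either direction and 10.9% negative. CDKN1A, the p21 inhibitor of the cell cycle, measured 82.7, 80.9 and 88.5 CPM untreated, 469, 507 and 495 CPM with CKI, 284, 262 and 286 CPM with doxorubicin and 505, 478 and 499 CPM with both. Cells given both agents overlapped those given CKI alone, and both lay above doxorubicin alone (interaction -1.71, SE 0.0782, adjusted p = 5.72e-14). The antiproliferative gene BTG2 stood at 20.7 CPM untreated, 70.3 with CKI, 58.00 with doxorubicin and 32.6 with both (interaction -2.60). TP53INP1, an autophagy and apoptosis factor, had an interaction of -3.34. In the vehicle control CDKN1A measured 160.4, 166 and 168 CPM, and with that baseline its interaction was -0.74, below the fold threshold, and the list held 3 negative calls.

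Targets of the aryl hydrocarbon receptor (AHR), a sensor of aromatic compounds that induces drug-metabolising enzymes, had 4 negative calls of 11 (median -0.88). This is 36.4%, beside 19.5% of all genes in either direction and 10.9% negative. CYP1A1, its classical target and a gene that the study followed up (chr15:75011883-75017877), measured 3.995, 3.42 and 4.23 CPM untreated, 413, 418 and 437 CPM with CKI, 3.72, 3.83 and 3.92 CPM with doxorubicin and 115, 118 and 122 CPM with both. Doxorubicin left CYP1A1 within the untreated range, and the rise with CKI was 6.77 log2 units without it and 4.95 with it (interaction -1.82, SE 0.146, adjusted p = 4.22e-10). CYP1B1 (-2.06), ALDH3A1 (-1.40) and TIPARP (-1.17) were the others, and 4 of the list were also negative with the vehicle baseline. CCND1, the D-type cyclin that the study also followed up, showed no called effect of either agent. It stood at 1302 CPM untreated, 1683 with CKI, 876 with doxorubicin and 1103 with both, with an interaction of -0.04 (SE 0.0817). The study's qPCR of CYP1A1 and CCND1 checked its MDA-MB-231 transcriptomes at a higher CKI concentration, so it is not set against these values.

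The lipid genes were grouped by pathway. Of 25 genes of sterol synthesis and SREBP2 targets, CKI raised 19 without doxorubicin and 19 with it, and doxorubicin alone lowered 9. The median interaction was 0.03 with 2 positive calls, among them MVK (1.29), and 2 negative ones, for LSS (-1.54) and TM7SF2 (-1.51). These 3 are enzymes of one pathway, MVK at its start and the others after squalene. The share called was 16.0%, beside 19.5% of all genes. With the vehicle baseline the list had 5 positive and 2 negative calls and a median of 0.60. Fatty acid synthesis had 1 positive and 3 negative calls of 13 (30.8%, beside 19.5% of all genes), with a median of -0.49. FASN, the synthase itself (chr17:80036214-80056170), was positive. It measured 2038, 1838 and 2099 CPM untreated, 4253, 4701 and 4515 CPM with CKI, 106, 103 and 104 CPM with doxorubicin and 1048, 921 and 914 CPM with both. FASN fell by 4.25 on the log2 scale with doxorubicin, and CKI raised it more in that setting (3.20) than without doxorubicin (1.17), for an interaction of 2.03 (SE 0.168, adjusted p = 7.35e-10). ACLY (-1.45) and ACSS2 (-1.29), which make the acetyl-CoA that FASN uses, and the desaturase FADS2 (-2.61) were negative, although ACSS2 was not called with the vehicle baseline (-0.98). LXR targets, which export cholesterol, and the LXR gene NR1H3 had 4 negative calls of 10 (median -0.98), for MYLIP (-1.60), NR1H3 (-1.19), APOE (-1.28) and ABCG1 (-1.36).

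Cytosolic heat shock genes, chaperones that refold proteins, had 5 positive calls of 14 and none negative (median 0.78). This is 35.7%, beside 19.5% of all genes in either direction and 8.56% positive. HSP90AA1, the inducible HSP90, measured 2376, 2499.5 and 2488 CPM untreated, 1427, 1415 and 1412 CPM with CKI, 1295, 1449 and 1302 CPM with doxorubicin and 2685, 2554 and 2693 CPM with both. The single-agent libraries lay below the untreated ones, the libraries given both lay above them, and the interaction was 1.76 (SE 0.0873, adjusted p = 2.12e-13). Its constitutive partner HSP90AB1 (1.23) and the mitochondrial chaperone HSPD1 (1.43) followed, and the vehicle baseline gave 7 positive calls. Genes of the unfolded protein response of the endoplasmic reticulum had 3 negative calls of 16 and none positive (median -0.73), for CRELD2 (-1.74), PDIA6 (-1.13) and DNAJB9 (-1.37). Against vehicle CRELD2 (-2.19) was the only call of the list, with PDIA6 at -0.93 and DNAJB9 at -0.89. The 20 ATF4 targets tested were divided (median 0.20), with ASNS (1.32) and DDIT4 (1.06) positive and NUPR1 (-2.08) and DDIT3 (-1.16) negative. DDIT4 (0.51) and DDIT3 (-0.34) were not called against vehicle. The shares called of these last 2 lists, 18.8% and 20.0%, were near the 19.5% of all genes in either direction. The unfolded protein list held negative calls only, beside 10.9% of all genes called negative.

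Of 23 antioxidant genes under NRF2, 3 were negative and 1 positive (median -0.36), or 17.4% beside 19.5% of all genes. AKR1B10, a reductase of aldehydes, stood at 1.40 CPM untreated, 25.4 with CKI, 7.42 with doxorubicin and 15.4 with both (interaction -3.12). HMOX1, heme oxygenase, stood at 19.7, 102, 49.00 and 125 CPM in the same order (interaction -1.02), PGD was at -1.06 and TALDO1 at 1.32, both of the pentose phosphate pathway. HMOX1 (-0.99) and PGD (-0.89) were not called when vehicle was the baseline. Hypoxia and glycolysis genes had 4 calls in each direction among 25 (32.0%, beside 19.5% of all genes), with a median of 0.45. The positive ones included LDHA (1.89), BNIP3 (1.47) and GPI (1.24), and the negative ones ALDOC (-1.43), P4HA1 (-1.30) and VEGFA (-1.13). GPI (0.87) and P4HA1 (-0.96) were likewise not called against vehicle. Among 16 doxorubicin targets, efflux pumps and reductases, the transporters ABCC5 (-1.53) and ABCC2 (-1.18) were called, both negative (median 0.08). This is 12.5%, beside 19.5% of all genes in either direction and 10.9% negative.

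**Figure D4:**
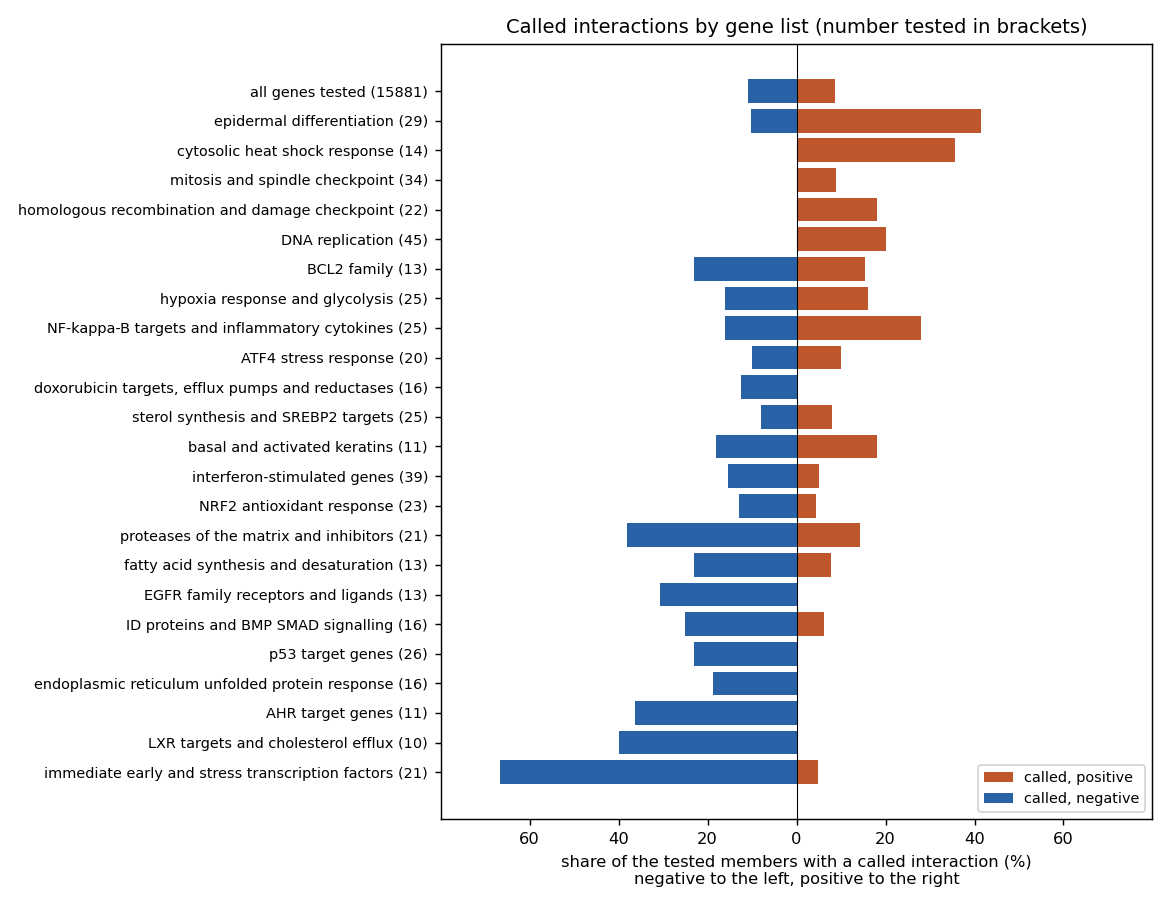
Share of the tested members of 23 gene lists with a called interaction, negative to the left in blue and positive to the right in orange, with all 15881 genes at the top and lists ordered by median interaction. Immediate early genes hold the largest negative share (14 of 21) and epidermal differentiation genes the largest positive share (12 of 29), with untreated cells as the baseline.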

How the data were processed

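RNA of A431 cells was sequenced as unstranded paired-end libraries, with 3 libraries per group. Raw read counts for each gene and library are what the authors deposited; per the labels, reads were trimmed with Trim Galore 0.3.7 and aligned to hg19 with STAR 2.5.3a. The counting tool and annotation are not given in the sources used here, and without strand, overlapping and antisense genes cannot be told apart. Entrez IDs were matched to RefSeq symbols for 24422 of 24566 rows; coordinates came from GENCODE on GRCh37. Of the rows tested, 225 share an Ensembl ID and identical counts with another row, and 55 of them were called.

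The counts of all 15 A431 libraries were fitted in edgeR 4.0.16 (R 4.3.3) with TMM factors, filterByExpr, glmQLFit and glmQLFTest, with 1 mean per group. Calls needed an absolute log2 value over 1 and a p-value under 0.05 after Benjamini-Hochberg adjustment. Log2 CPM used a prior count of 2. Total counts of 17757206 to 21105289 set the precision, and 3 counts were worth 0.142 to 0.169 CPM without the TMM factor.

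Named genes were in each direction the 10 with the smallest adjusted p-value, at least 5 CPM on average in a group and all 3 libraries given both agents on 1 side of expectation, up to 3 called members of each list and direction, and CYP1A1, IL1B and CCND1. Others, such as IFI6, HERC5, KLF2 and further called members of short lists, were named after their values were seen. A few genes that the rule selects are not reported here. The members and lists were chosen with earlier results of these data known. Lists are described by counts and medians, without a test.

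On simulated counts for 15635 genes, the fit found 92.5% of 200 changed genes, and 0.538% of its calls fell on unchanged ones. By the adjusted p-value alone, 6.06% of calls fell on unchanged genes. The planted changes were 1.5, 2 or 3 on the log2 scale, all over the threshold, in genes with ample counts. All other genes were set as exactly multiplicative and noise followed the fitted model, so these rates do not carry over to the real calls. Replicate numbers did not pair the libraries: 18 same-numbered pairs had correlations of deviations from -0.112 to 0.142. Alternatives were DESeq2 1.42.0, RLE factors, library size alone, no filter, at least 10 counts in every library, only the 12 libraries, the vehicle baseline, the replicate block, offsets for GC content and transcript length (lowess span 0.3), the adjusted p-value alone, and leaving out each library. The MDA-MB-231 libraries were not used here.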

Additional observations from a re-analysis of the deposited data

Results flagged for a closer look

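The vehicle control is not part of the interaction contrast, although its libraries were in the fit that set the filter, scaling and spread. In edgeR's quasi-likelihood test at the same thresholds, 404 of 15881 genes (2.54%) differed between the vehicle control and untreated cells, 166 higher and 238 lower. Among the interaction genes the number was 175 (5.66%). Both contrasts use the same untreated libraries, so the 2 sets of calls are not independent and the shares were not tested against each other. Of the 104 genes named by rule, 15 differed, and each is given because it lies outside the comparison of the 4 groups. On the log2 scale, vehicle minus untreated, the immediate early and stress genes stood at 5.16 for ATF3, 4.46 for FOSB, 3.58 for DUSP1, 2.24 for PPP1R15A and 1.81 for NR4A1. KLF6, EGR3 and KLF2, which the rule did not name, stood at 3.33, 2.13 and 1.19. The difference was 3.30 for NFKBIZ, 1.89 for PTGS2, 1.53 for IL1B and 1.22 for CXCL1, which are inflammatory genes. EGFR pathway genes stood at 2.58 for ERRFI1 and 1.93 for HBEGF. MCL1 was at 1.23 and KLK5 at 1.21. Lower in vehicle than in untreated cells were ALPP at -1.24 and ALDH3A1 at -1.15. All 3 vehicle libraries lay outside the untreated range for each of these genes. What the vehicle held is not described in the labels, and which baseline matches cells given CKI was not tested.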

How the results depend on the processing

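The number of called interactions was 3040 with DESeq2, 3090 with RLE factors, 3119 with library size alone, 3229 with no filter, 2117 with at least 10 counts in every library, 3142 with only the 12 libraries, 3346 with the vehicle baseline and 3046 with offsets for GC content and transcript length. Call and direction were kept by 94.9% of the 3092 genes with DESeq2, by 89.3% with library size alone, 87.6% with the offsets and 74% with the vehicle baseline. The share of positive calls, 44%, was 33% with library size alone and 35.6% with the offsets.

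Without a filter doxorubicin changed 6171 genes in cells with CKI. With at least 10 counts in every library, CKI changed 1431 genes with doxorubicin, doxorubicin changed 3197 without and 1837 with CKI, and the classes held 910 genes for a CKI effect lost with doxorubicin, 58 for opposite effects and 46 for smaller ones; fewer genes entered these tests. By the adjusted p-value alone, 9117 interactions were called, 4981 positive and 4136 negative, with 10648 genes changed by CKI alone, 10102 by CKI with doxorubicin, 12802 by doxorubicin alone and 11634 by doxorubicin with CKI. The classes then held 2499 lost, 1626 gained, 1981 opposite, 2153 smaller, 760 larger and 98 with neither.

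Signs turned with the vehicle baseline for ATF3 (0.41), DUSP1 (0.29), PPP1R15A (0.11), NFKBIZ (0.82) and ERRFI1 (1.26), and for the medians of immediate early genes (0.12), EGFR family genes (0.19), interferon-stimulated genes (0.02) and doxorubicin targets (-0.15). The last was -0.06 with library size alone and -0.09 with the offsets, with or without the replicate block. The sterol median was -0.01 with DESeq2, -0.01 with RLE factors, -0.11 with library size alone, -0.05 with at least 10 counts and 0.60 with the vehicle baseline, and the ATF4 median was -0.02 with the offsets in both fits. With the vehicle baseline 10 lists held more positive than negative calls. The cause of these changes was not tested beyond the vehicle levels given above.

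Same-numbered libraries share only a number: 7 of 12 correlated best with their own. The replicate block gave 3059 calls, and 98.4% of the genes kept theirs. Leaving out each library in turn gave 2989 to 3168 calls, and BCL2L1, DDIT4, HMOX1, PLK1 and TIMP1, all near the fold threshold, lost theirs in at least 1 such fit. Transcripts below about 0.169 CPM (3 counts) are beyond this depth.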

Other observations

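Further groups were examined after their values had been seen, so no test is attached to them. All 6 linker histone genes tested had a positive interaction (median 2.89; 5 were called with GC and length offsets), of which H1-2 is described above. H1-10, at 403 CPM in untreated cells, fell by 1.01 on the log2 scale with CKI and fell by 2.06 with doxorubicin, and its interaction was 1.35, and 3 others had group means of at most 1.22 CPM. With the vehicle baseline the 6 were again positive (median 2.41). Cytosolic ribosomal proteins had 28 positive calls of 83 and none negative (median 0.90), and mitochondrial ribosomal proteins 24 positive and 1 negative of 74 (median 0.79). With library size alone these numbers were 14 and 0, and 19 and 1, and with GC and length offsets 9 and 0, and 13 and 1. On the negative side stood 15 of 37 HOX genes against 4 positive, and 7 of 14 claudins, which seal tight junctions, against none. The 3 NR4A receptors were negative too (median -4.31, or -2.50 with the vehicle baseline, where 2 were called). Beside these counts, 8.56% of all genes were called positive and 10.9% negative. Some called members were low, with group means of at most 1.31 CPM for HOXC12, 1.63 for HOXD12, 0.534 for CLDN2 and 0.85 for NR4A3. With at least 10 counts in every library, and so fewer genes tested, 9 HOX genes, 5 claudins and 2 NR4A receptors were called negative. Positive calls then numbered 19 for cytosolic and 22 for mitochondrial ribosomal proteins, and 3 for linker histones.

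Of 1360 positive genes 23.7% lay within 5 Mb of a chromosome end, against 12.2% of negative genes and 12.6% of all genes tested. The share was 31.5% among positive genes that doxorubicin alone lowered and 11.7% among the other positive genes, and 22.5% among genes that doxorubicin lowered without a called interaction. With the offsets it was 24.5% for positive and 12.6% for negative genes. With the vehicle baseline the shares were 15.7% and 15.8%, so the difference between directions was not found there. Among genes of the highest GC tercile 20.7% within 5 Mb were positive and 8.72% further in. These shares were 7.39% and 7.80% in the middle tercile and 7.37% and 6.25% in the lowest.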
